A study of Mus musculus with 4 samples.

Results

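The nuclei described here are inhibitory neurons of the adult mouse hippocampus whose RNA is rich in Cnr1, the gene of the cannabinoid receptor CB1. They were chosen by a fixed gate on raw counts of unique molecular identifiers (UMIs, 1 per captured RNA molecule). A barcode was taken where it held at least 5000 UMIs, at least 3 UMIs of Gad1 and Gad2 together, at least 10 of Cnr1 and at least 3 of Adarb2, and no more than 1 each of Vip, Lamp5, Sst and Slc17a7. The gate found 324 of the 32572 barcodes with at least 5000 UMIs, among 2302 that passed the Gad1, Gad2 and Slc17a7 steps alone. Control libraries held 56 and 79 of them, and Kat6a-cKO libraries 90 and 99. High Cnr1, Gad1, Gad2 and Adarb2 and low Vip, Lamp5, Sst and Slc17a7 are therefore properties of the choice and are not findings.

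The series profiled nuclear RNA of adult mouse hippocampus with the 10x Genomics Chromium kit in 4 libraries. Control libraries (n = 2) are labelled Kat6a-f/f, which names loxP-flanked (floxed) Kat6a alleles, with no Cre named. Kat6a-cKO libraries (n = 2) are labelled NEX-cre with Kat6a-f/f. The floxed allele is thus shared by all 4 libraries, and the NEX-cre allele goes with the deletion. NEX-cre is expressed from Neurod6, a gene of forebrain excitatory neurons, so interneurons are not the cells in which Cre is meant to act. The labels give no age beyond adult, no sex, no day of preparation and no number of animals per library, so the p-values measure the spread between these libraries.

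CB1 is a receptor on axon terminals. Cannabinoids released by the postsynaptic cell bind it and lower transmitter release. In the hippocampus it is most abundant on the terminals of interneurons that make the peptide cholecystokinin (Cck), which include basket cells and dendrite-targeting cells. These neurons come from the caudal ganglionic eminence, an embryonic source that also gives rise to Vip interneurons and is marked by Adarb2. Sst interneurons come from the medial ganglionic eminence, whose descendants express Lhx6.

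Of the barcodes with at least 5000 UMIs, 2723 passed the Gad1 and Gad2 step, 474 of those the Cnr1 step, 455 the Adarb2 step, 380 the Vip step, 367 the Lamp5 step, 362 the Sst step and 324 the Slc17a7 step. Among nuclei that passed every step but Cnr1, 36 had 8 or 9 Cnr1 UMIs and lay just outside, 27 had 10 or 11 and lay just inside, and 245 had 20 or more. The chosen nuclei had median depths of 21780 and 19557 (Control) and 18383 and 18968 (Kat6a-cKO) UMIs, and summed totals of 1269422, 1640797, 1713045 and 1936474 UMIs. A minimum in UMIs favours deeper nuclei, and the median over all barcodes with at least 5000 UMIs was 13924 to 14666. Doublet calls fell on 1, 0, 1 and 1 of the chosen nuclei. Pairs of libraries shared 15 to 20 barcodes with at least 5000 UMIs and none among the chosen nuclei.

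Cck, the peptide that gives these interneurons their usual name, was not part of the gate, and its level varied among the nuclei. Its summed level was 212 and 147 CPM (Control) against 95.7 and 167 CPM (Kat6a-cKO), where CPM is counts per 1000000 counts of the sum. The highest Control library rested partly on 1 nucleus with 59 Cck UMIs and stood at 169 CPM without it. In Sst nuclei, chosen by at least 5 Sst UMIs, the level was 41.0 to 52.5 CPM in the 4 libraries, below every library of the Cnr1-rich nuclei. Vip nuclei, chosen by at least 5 Vip UMIs, had 98.1 to 198 CPM, a range that overlaps that of the Cnr1-rich nuclei. Against Sst nuclei the log2 difference was 1.74 ± 0.18 (SE, adjusted p = 1.6e-10). Against Vip nuclei it was 0.09 ± 0.20 (SE, adjusted p = 0.865), and without Control replicate 1 it was -0.27. Barcodes of 10 to 100 UMIs, which carry mostly free RNA, held 171 to 272 CPM, so part of the Cck in any nucleus can come from outside it.

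No Cck UMI was found in 82 of the 324 nuclei (25.3%), and 172 (53.1%) had at least 2. With every nucleus thinned to 5000 UMIs, the share with a Cck UMI was 41.1% and 41.8% (Control) against 35.6% and 45.5% (Kat6a-cKO). The same share in Sst nuclei, at medians of 18372 to 19266 UMIs before thinning, was 19.5% and 17.9% (Control) against 18.2% and 15% (Kat6a-cKO). Before thinning the shares were 69.6% to 80.4% in Cnr1-rich and 52.7% to 65.0% in Sst nuclei. Cck thus passed the test against Sst nuclei and not against Vip nuclei, and many of the chosen nuclei had little or none. The name used below is therefore Cnr1-rich nuclei rather than Cck-type.

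**Figure D1:**
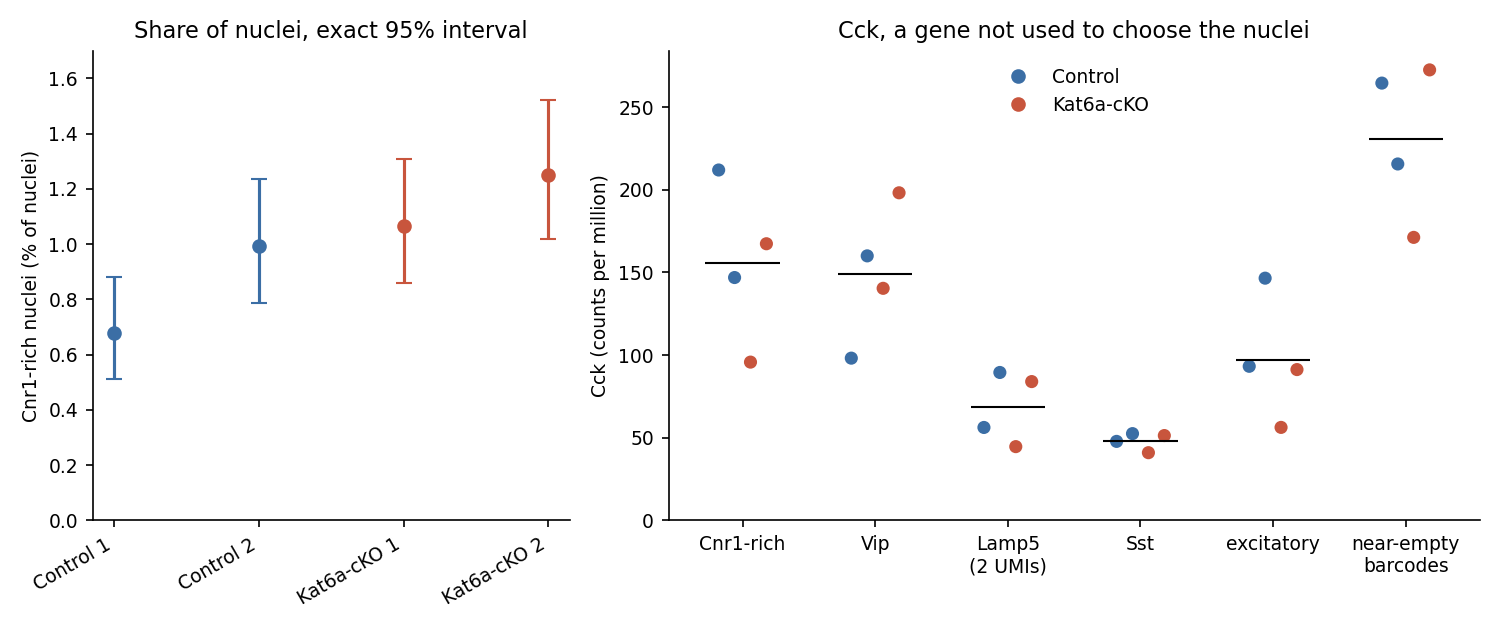
Left, Cnr1-rich nuclei as a percent of barcodes with at least 5000 UMIs in each library, with exact 95% intervals. Right, Cck in CPM, 1 point per library and a line at the mean of 4, in 5 kinds of nuclei and in near-empty barcodes: all Cnr1-rich points lie above all Sst points and overlap the Vip points.

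Markers of excitatory neurons and of glia were below their level in near-empty barcodes, and those of other interneurons were not. Summed over 11 excitatory neuron markers outside the gate, the level was 306 to 330.3 CPM, and 570.2 to 714 CPM in near-empty barcodes. The 9 oligodendrocyte markers summed to 53.2 to 93.7 CPM (near-empty barcodes 2081 to 2269.7 CPM), the 9 microglia markers to 113 to 140.2 CPM (near-empty 2672 to 3260.0 CPM) and the 10 astrocyte markers to 172 to 230.0 CPM (near-empty 802 to 1143 CPM). The 7 markers of oligodendrocyte precursors (OPC) summed to 18.6 to 28.6 CPM, 96.5 to 114 CPM in near-empty barcodes, 0 to 25.4 CPM in Vip and 10.7 to 15.3 CPM in Sst nuclei. The 1 OPC marker that could be tested, Vcan (versican, a matrix proteoglycan), was at 2.08 ± 0.54 (SE, adjusted p = 0.00602) against Vip and 1.11 ± 0.28 (SE, adjusted p = 0.00303) against Sst nuclei on the log2 scale, and passed in both. Astrocyte markers summed to 313 to 558 CPM in Vip and 117 to 182 CPM in Sst nuclei, and excitatory markers to 340.2 to 523 CPM and 614 to 726 CPM. The 9 genes of the medial lineage outside the gate summed to 425 to 498 CPM, above near-empty barcodes (271 to 325 CPM) and below Vip (602 to 681 CPM) and Sst nuclei (1744 to 2047 CPM). Most of that sum was Maf, a transcription factor, at 245 to 335 CPM, with Satb1, another, at 61.9 to 99.3 CPM and Elfn1, a synaptic protein, at 64.0 to 85.8 CPM. Lhx6, the defining gene of the lineage, was at 0 to 0.516 CPM and Sox6 at 2.44 to 27.6 CPM. The 9 markers of other interneuron types summed to 205 to 314 CPM, against 171 to 223 CPM in near-empty barcodes, and Ndnf made up 151 to 262 CPM of it. Of the 11 excitatory markers 1 was at 0 in all libraries, and the part of RNA from other cells in the results below was not tested.

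The 324 nuclei did not form 1 uniform group. Clustering them with 52 genes left out, the gate genes and Cck among them, gave 8 clusters of 12 to 64 nuclei. At a lower or higher resolution there were 6 or 11. The lower one joined cluster 3 with 5 and cluster 2 with 6, and left clusters 1, 4, 7 and 8 whole. The higher one split clusters 1, 2 and 3, and some nuclei of clusters 3, 4, 5 and 6 fell in with part of cluster 2. The 8 clusters are therefore not equally distinct. Apart from Cck and Cnr1, the genes below helped to define the clusters, so their levels are a description with no test. Genes described across the clusters are Ntng1 (netrin-G1, a membrane-bound axon guidance protein), Cxcl14 (a chemokine), Slc17a8 (the vesicular glutamate transporter VGLUT3), Reln (reelin, a secreted glycoprotein), Ndnf (a secreted neurotrophic factor) and Cck.

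Pooled over libraries, Slc17a8 was highest in clusters 4, 5 and 8, at 345, 207 and 351 CPM, against 0 to 23.3 CPM in the other 5. Nuclei with no Slc17a8 UMI were found in clusters 4 and 5 too. Over all clusters, 46 and 57 (Control) against 75 and 62 (Kat6a-cKO) of the chosen nuclei had none. In Control replicate 1, with 3 nuclei of cluster 5, the Slc17a8 level there was 30.6 CPM. With the libraries pooled, clusters 4 (42 nuclei) and 5 (38 nuclei, 17 of them from Kat6a-cKO replicate 2) also held 238 and 296 CPM of Cck and 3585 and 2877 CPM of Cnr1, above the other clusters. Control replicate 1 was an exception, where Cck was 453 CPM in cluster 2 against 241 and 168 CPM in clusters 4 and 5, and Cnr1 in cluster 5, at 2158 CPM, was below clusters 7, 2 and 3 (2491, 2417 and 2172 CPM). Clusters 4 and 5 were set apart by other genes. Cluster 4 was led by Ror1, a receptor of the Wnt family of ligands, at 558 CPM, Kctd12, a subunit of GABA-B receptors, at 204 CPM, and the ion channel gene Trpm3 at 4202 CPM, and it held 5873 CPM of Cadps2, which primes dense-core vesicles. Cluster 5 was led by Enpp2, which makes lysophosphatidic acid, at 575 CPM, Dpy19l1 at 511 CPM, the transcription factor Pbx3 at 587 CPM and the serotonin receptor Htr2c at 1005 CPM. Its Ntng1 level was 1966 CPM, against 6.1 CPM in cluster 4. Cluster 8 (12 nuclei, none from Kat6a-cKO replicate 1) was led by Ptprk, Col11a1 and Efna5 and had no Reln count.

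Cxcl14 was at 145 and 149.8 CPM in clusters 1 and 2, 82.3 CPM in cluster 4, 14.6 to 40.7 CPM in clusters 3, 6, 7 and 8, and 1.43 CPM in cluster 5. In cluster 4 the libraries held 54.6 to 94.9 CPM, and in Kat6a-cKO replicate 1 it was above cluster 1, at 85.2 against 56.0 CPM. Cluster 1 (64 nuclei) was led by the collagen gene Col5a2 at 165 CPM, Ndnf at 666 CPM, the phosphodiesterase gene Pde3a at 1599 CPM and the oestrogen receptor Esr1 at 299.7 CPM, with 860.5 CPM of Reln. Cluster 2 (55 nuclei) was led by Stxbp6 at 388 CPM, the protein kinase C gene Prkca at 2949 CPM and neuregulin 1 (Nrg1) at 1150.2 CPM. Its Calb1 level, for the calcium buffer calbindin, was 82.7 CPM, and its Ndnf level 42.6 CPM. Cck was 64.9 CPM in cluster 1 and 207 CPM in cluster 2, or 162 CPM without the nucleus of 59 Cck UMIs. In cluster 2 it was 453 and 132 CPM (Control) against 88.6 and 139 CPM (Kat6a-cKO), so the pooled value rests on Control replicate 1.

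Cluster 3 (54 nuclei) was led by Sema5a, a semaphorin, at 613 CPM and the muscarinic receptor Chrm2 at 213 CPM, with 3749 CPM of Ntng1. Cluster 7 (25 nuclei) had 4734 CPM of Ntng1, the highest in each library, and 1477 CPM of Reln, the highest in each library but Kat6a-cKO replicate 2 (1920 CPM, against 2053 CPM in cluster 6), and was led by Adamtsl1 at 516 CPM and Tmem132c at 332 CPM. Cluster 6 (34 nuclei) was led by Cdh20, a cadherin, at 431 CPM, March1 at 1369 CPM, and the glutamate receptor Grm7 at 1284 CPM, and had 126 CPM of Prox1. Its nuclei were the shallowest, with a median of 13065 UMIs against 17881 to 21941 in the other clusters. Clusters 1, 6 and 7 together held 123 nuclei with 60.7 CPM of Cck, near the 41.0 to 52.5 CPM of Sst nuclei. Each of the 8 clusters drew on at least 3 libraries.

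**Figure D2:**
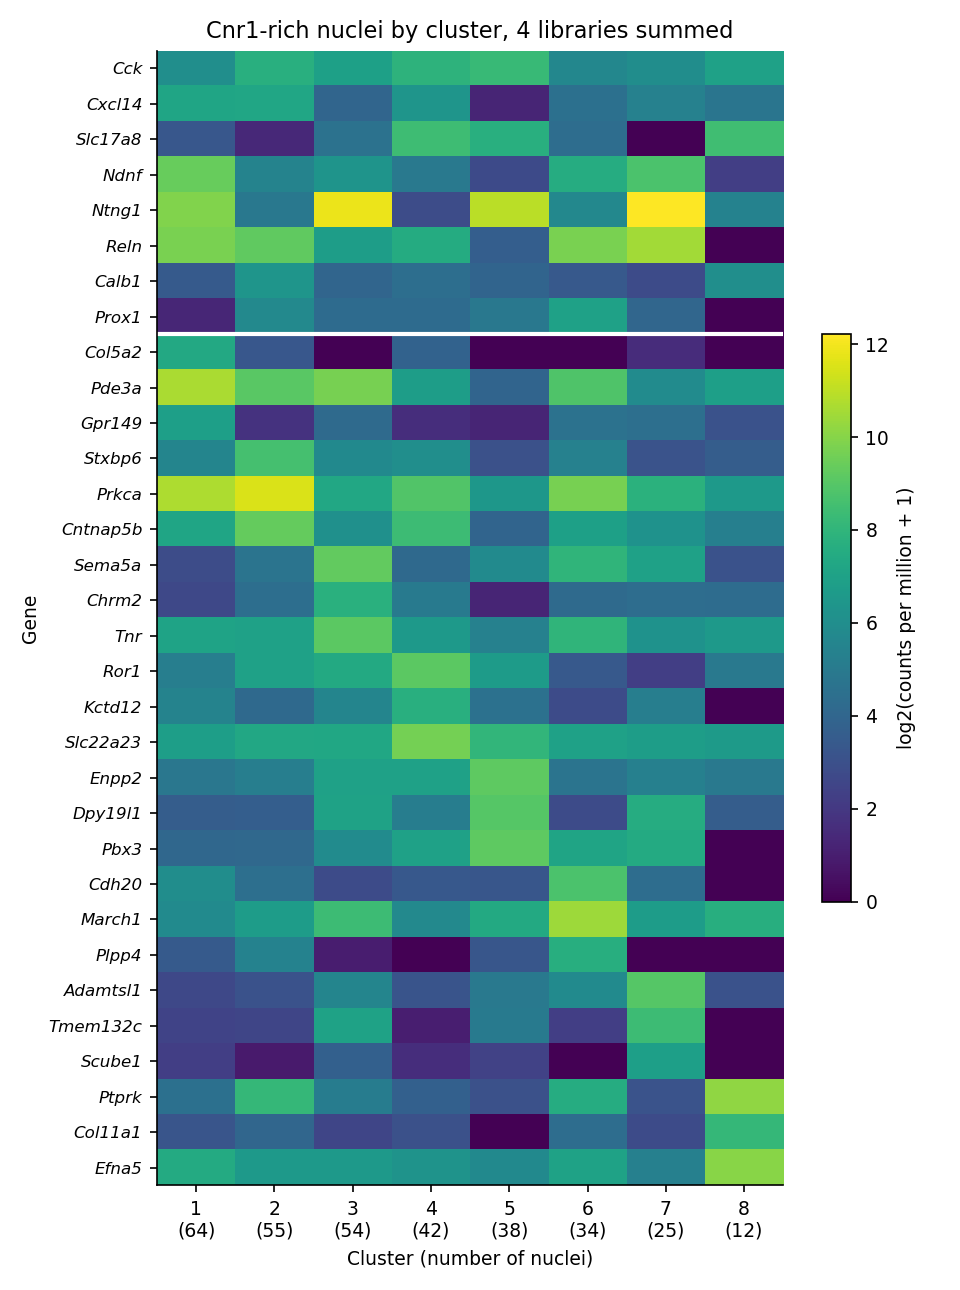
Level of 32 genes in the 8 clusters of Cnr1-rich nuclei, as log2(CPM + 1), with the 4 libraries summed. The upper 8 rows are genes named in the text and the lower rows are 3 leading genes per cluster, from cluster 1 to cluster 8: Slc17a8 is high in clusters 4, 5 and 8, and Ntng1 in clusters 3, 5 and 7.

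Cnr1-rich nuclei made up 0.678% and 0.992% of nuclei in the Control libraries, against 1.07% and 1.25% in those of Kat6a-cKO, with exact 95% binomial intervals of 0.513 to 0.88%, 0.786 to 1.24%, 0.858 to 1.31% and 1.02 to 1.52%. These intervals cover counting error only. The means were 0.835% ± 0.222 (SD, n = 2) and 1.16% ± 0.131 (SD, n = 2), and the difference of 0.324 percentage points gave p = 0.33 in a two-sided exact permutation test, the smallest p that 2 against 2 libraries allow. The difference was 0.166 percentage points without Control replicate 1, and 0.481 with Control replicate 2 left out. The groups did not overlap, and the nearest libraries of the groups stood at 0.992% and 1.07%. Counted per nucleus with Gad1 and Gad2, the shares were 8.47% and 12.2% against 12.1% and 14.8%, which overlap (exact permutation p = 0.667). With at least 2 Cck UMIs required as well, the difference was 0.0606 percentage points (exact permutation p = 1.0). Cluster 5 took 5.36% and 8.86% of Cnr1-rich nuclei in the Control libraries, against 12.2% and 17.2%. Clusters 1, 2, 3 and 7 overlapped between the groups in this share. Clusters 4 and 6, like cluster 5, did not overlap. Cluster 4 took 12.5% and 11.4% against 13.3% and 14.1%, and cluster 6 took 12.5% and 12.7% against 8.89% and 9.09%. Such a separation is common with 2 against 2 libraries: 33.2% of genes tested for genotype had groups that did not overlap. At the lower resolution cluster 5 joined cluster 3 and cluster 6 joined cluster 2, so the shares of clusters 5 and 6 depend on the resolution. Cluster 8, with 0 to 5 nuclei a library, is too small for a reading.

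Genes outside the gate set the Cnr1-rich nuclei apart from Vip and from Sst nuclei of the same libraries. Nuclei of each type were summed per library, 4 sums each, and compared with edgeR's quasi-likelihood test with library as a block and Benjamini-Hochberg adjustment. The same fit held 4 sums of Lamp5 nuclei, made of 5, 4, 1 and 1 nuclei, which share its estimate of the spread, and some calls below change when these are left out. There were 99 Vip nuclei (28 and 27 in Control, 23 and 21 in Kat6a-cKO) and 296 Sst nuclei (77, 84, 55 and 80). The gate genes were left out. Other genes that vary with a gate gene are not independent of the choice, so a difference describes the groups as gated. Vip nuclei were shallower, with medians of 11017 to 13776.5 UMIs against 18383 to 21780, and were not limited in Cnr1, with medians of 6 to 12 Cnr1 UMIs. Of 8105 genes tested, 964 (11.9%) differed from Vip nuclei, 467 higher (5.76%) and 497 lower (6.13%). From Sst nuclei 1547 (19.1%) differed, 798 higher (9.85%) and 749 lower (9.24%). Over all genes the median log2 difference was 0.01 against Vip nuclei, and as near 0 against Sst nuclei.

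Of the genes named as higher, Slc17a8 came first by the log2 difference from the mean of the other types (build GRCm38, chr10:89574020-89621253, minus strand), whose product VGLUT3 loads glutamate into vesicles. Its level was 63.0 and 115 CPM (Control) against 46.7 and 143 CPM (Kat6a-cKO). No count was found in any Vip library, so the level over all libraries was at least 43.4-fold higher, taking 3 counts over the group as the limit. Sst nuclei held 0.603 to 7.51 CPM, a log2 difference of 4.89 ± 0.27 (SE, adjusted p = 2.4e-16). Cxcl14 (chr13:56288643-56296551, minus strand) was at 118 and 60.3 CPM (Control) against 52.0 and 89.3 CPM (Kat6a-cKO), against 3.74 to 17.8 CPM in Vip and 0.626 to 2.55 CPM in Sst nuclei. The Cxcl14 differences were 2.64 ± 0.30 (SE, adjusted p = 1.4e-08) and 5.67 ± 0.29 (SE, adjusted p = 3e-18). In near-empty barcodes Cxcl14 stood at 169.6 CPM in Control replicate 2 and 29.5 to 30.9 CPM in the other libraries, and whether free RNA adds to these levels was not tested.

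Of the genes used to tell subtypes of Cck interneurons apart, 13 of 25 tested genes were higher and 4 lower than in Vip nuclei, with a median log2 difference of 1.09, also with genes absent from Vip nuclei set at their lower bound. Against Sst nuclei 16 of 25 tested genes were higher and 5 lower, with a median of 1.75. Over all genes 5.76% were higher and 6.13% lower than in Vip nuclei, and 9.85% and 9.24% than in Sst nuclei. The 30 genes of the list summed to 6812 to 8054 CPM in Cnr1-rich, 1715 to 2430.2 CPM in Vip and 5175 to 5589 CPM in Sst nuclei. In Lamp5 nuclei, taken from 2 Lamp5 UMIs, they summed to 6414 to 7681 CPM, which overlaps the Cnr1-rich range. Ntng1 (chr3:109780040-110144011, minus strand) was at 1142 to 1607 CPM in Cnr1-rich, 0 to 16 CPM in Vip and 49.5 to 54.8 CPM in Sst nuclei, with log2 differences of 7.26 and 4.86. Ndnf (chr6:65671590-65712326, plus strand) was higher by 4.51 than in Vip and 3.47 than in Sst nuclei. Col25a1, a membrane collagen, and Rgs12, a regulator of G-protein signalling, were also above both, by 2.26 and 2.83 and by 1.28 and 6.21. All of these passed the test in both comparisons. None of them is among the 12 genes named below as higher than Vip, Lamp5 and Sst nuclei in every library. Their levels in Lamp5 nuclei are not given here, so these differences hold against Vip and Sst nuclei only. The neuropeptide Npy was above Vip nuclei (2.90) and below Sst nuclei (-0.96), and Nxph1, a neurexin ligand, likewise (6.24 and -3.24). Calb2 (calretinin) and Penk (proenkephalin), genes of Vip interneurons, were below Vip nuclei, at -4.06 and -4.63. Ntng1 overlaps 2 other annotated genes, and whether strand was used in counting is not given in the sources used here.

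The genes of developmental origin differed from Sst nuclei and, in fewer cases, from Vip nuclei. Adarb2 and Sst belong to these lists and were used in the gates. The contrast with Sst nuclei was thus to a large extent set by the choice, and is a description. Against Sst nuclei 6 of 7 tested genes were higher and 0 lower on the list for the caudal ganglionic eminence: Prox1 by 1.40, Npas1 by 1.38, Npas3 by 1.20, Nr2f2 by 0.94, Egfr by 1.23 and Sp8, with 136 counts against 0, at least 40.4-fold. Over all genes 9.85% were higher and 9.24% lower than in Sst nuclei. All 6 but Egfr are transcription factors. The Egfr difference was near 0 with a Cnr1 minimum of 20 UMIs (0.0048, adjusted p = 0.999) and with 2 Cck UMIs required as well (0.074, adjusted p = 0.954). Cluster 6 held 152 CPM of Egfr, against a mean of 8.26 CPM over the other clusters. Its Cnr1 level was 707 and 1101 CPM (Control) against 861 and 1969 CPM (Kat6a-cKO). In the Control libraries alone Egfr and Npas3 did not pass (adjusted p = 0.1 and 0.0514). On the list for the medial eminence 0 of 6 tested genes were higher and 5 lower, among them Sox6 at -5.73 and Satb1 at -2.47. Lhx6 had 1 count in Cnr1-rich and 193 in Sst nuclei, where its level was higher by 216-fold, with a 95% counting interval of 38.4 to 8593. Against Vip nuclei, which share the caudal origin, Prox1 and Egfr were lower, at -2.84 and -4.52. Prox1 stood at 21.9 to 36.2 CPM in Cnr1-rich and 194 to 239 CPM in Vip nuclei, and the ranges did not overlap. Satb1 was higher than in Vip nuclei (1.48 ± 0.28 SE, adjusted p = 0.00015).

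Genes of the endocannabinoid system other than Cnr1 passed the test about as often as all genes, of which 11.9% and 19.1% were called against Vip and Sst nuclei. Of 16 tested, none was higher than in Vip nuclei and Plcb1 and Gnai1 were lower, and against Sst nuclei Gnao1 was higher and Dagla and Plcb1 were lower. Plcb1, a phospholipase C, was at -1.19 and -1.80 on the log2 scale against Vip and Sst nuclei. Dagla, which makes the endocannabinoid 2-arachidonoylglycerol, was at 9.81 to 15.2 CPM against 30.2 to 47.2 CPM in Sst nuclei (-1.56 ± 0.22 SE, adjusted p = 2.7e-07). Gnai1 and Gnao1 encode G-protein subunits. Gnai1 was at -0.60 against Vip nuclei and did not pass without Control replicate 2 (-0.43, adjusted p = 0.159), with DESeq2 (0.0669) or in the Control libraries alone (0.065). Gnao1 was at 0.98 against Sst nuclei.

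Of 11 tested genes for cholecystokinin, its receptors and the processing of peptides, 0 were higher and 3 lower than in Vip nuclei. These were Scg2 (secretogranin II), Pcsk1 (a prohormone convertase) and Pam (the amidating enzyme), at -1.53, -1.42 and -1.39. Against Sst nuclei Cck and Pcsk2, another convertase, were higher, by 1.74 and 1.21, and Pam and Scg2 were lower, at -1.21 and -1.10. Over all genes 11.9% were called against Vip nuclei (6.13% lower) and 19.1% against Sst nuclei.

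Receptors for neuromodulators differed in both directions. Against Vip nuclei 4 of 20 tested genes were higher and 10 lower, and against Sst nuclei 8 of 20 tested genes were higher and 3 lower. The share called over all genes was 11.9% against Vip and 19.1% against Sst nuclei. Htr2c, a serotonin receptor, was at 220.0 to 456 CPM against 5.85 to 68.9 CPM in Sst nuclei (3.52 ± 0.30 SE, adjusted p = 2.5e-12). Of 6 metabotropic glutamate receptors tested, 5 were lower than in Sst nuclei and 0 higher. Against Vip nuclei 3 were lower and 0 higher. Grm7 was at -3.26 and -2.83 on the log2 scale, and Grm8 at -2.71 and -1.68. These low levels were not shared by all the chosen nuclei. Cluster 6 held 1284 CPM of Grm7 and 977 CPM of Grm8, against means of 155 and 145 CPM over the other clusters.

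Of 27 tested genes for presynaptic calcium channels and vesicle release, 5 were higher and 3 lower than in Vip nuclei, and 6 were higher and 6 lower than in Sst nuclei, where 11.9% and 19.1% of all genes were called. The calcium channel genes moved in different directions against Sst nuclei. Cacna1b, the pore of N-type channels, was at 631 to 682 CPM against 399 to 460.5 CPM (0.69 ± 0.17 SE, adjusted p = 0.00204). Cacna1a, the pore of P/Q-type channels, was at 168 to 214 CPM against 619 to 669 CPM (-1.74 ± 0.17 SE, adjusted p = 5.9e-11). Against Vip nuclei Cacna1b was at 0.49 ± 0.18 (SE, adjusted p = 0.0711), which missed the threshold here and passed in 8 of 15 alternatives, among them the fit without Lamp5 nuclei (adjusted p = 0.00031). The auxiliary subunits Cacna2d1 and Cacna2d2 were at 1.59 and -2.05 against Sst nuclei, and both passed. Syt7, a calcium sensor, was lower, at -1.40. Of 8 tested Wnt and R-spondin genes, 2 were higher and 1 lower than in Vip nuclei, and 4 were higher and 0 lower than in Sst nuclei. Rspo3, a secreted R-spondin, was higher than in both, by 2.86 and 2.40, and Lgr4, an R-spondin receptor, by 0.58 and 0.63. Against Vip nuclei Lgr4 did not pass without Control replicate 1, Kat6a-cKO replicate 1 or Kat6a-cKO replicate 2 (adjusted p = 0.19, 0.107 and 0.109), in the Control libraries alone (0.281) or with a minimum of 8000 UMIs (0.0686). Its log2 difference in these fits was 0.49 to 0.57. Znrf3, which lowers Wnt receptors at the membrane, and Ctnnb1 (beta-catenin) were higher than in Sst nuclei, by 0.87 and 0.90. Rspo2, a secreted amplifier of Wnt signalling, was at 4.09 to 22.6 CPM against 284 to 369.7 CPM in Vip nuclei (-4.98 ± 0.25 SE, adjusted p = 1.4e-17). Of 5 tested genes of the KAT6A complex 0 passed in either comparison, where 11.9% and 19.1% of all genes did, so the count says nothing particular of these 5.

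Another comparison, against the equal-weight mean of Vip, Lamp5 and Sst nuclei, rests on Lamp5 sums of 5, 4, 1 and 1 nuclei and called 780 of 8105 genes (9.62%), 571 higher (7.05%) and 209 lower (2.58%). With Lamp5 nuclei left out it called 1385, 776 higher and 609 lower. The genes it named are given here by their Vip and Sst values. The 12 named higher were Slc17a8, Cxcl14, Cadps2, Syt6, Bmp3, Col5a2, Dysf, Trp53i11, Gas2l3, 4930467D21Rik, Strip2 and Megf10. Cadps2 was at 2016 to 2820.2 CPM against 250.5 to 646 CPM in Vip and 11.5 to 46.3 CPM in Sst nuclei. Syt6, a synaptotagmin, was higher by 3.20 and 6.46 than in Vip and Sst nuclei. Bmp3, a growth factor of the BMP family, had 327 counts against 2 in Vip nuclei, a level higher by 34.0-fold, with a 95% counting interval of 9.33 to 282, and was higher by 5.73 on the log2 scale than in Sst nuclei. Col5a2 and Gas2l3 had no count in Vip nuclei and were at least 16.9-fold and 16.1-fold higher. The log2 differences of Dysf (dysferlin), Trp53i11, Strip2 and Megf10 were 1.49, 1.09, 2.20 and 1.23 against Vip and 4.12, 4.01, 1.97 and 6.26 against Sst nuclei. Against Vip nuclei Trp53i11 did not pass with DESeq2 (adjusted p = 0.0528), and in the Control libraries alone Dysf, Trp53i11 and Megf10 did not pass (adjusted p = 0.0763, 0.065 and 0.0785). 4930467D21Rik, at 1.84 against Vip nuclei, did not pass without Kat6a-cKO replicate 1 (adjusted p = 0.196), with DESeq2 (0.0828) or in the Control libraries alone (0.285).

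Genes named lower included Astn2, Ptprd, Sidt1, Grin3a, Hs3st4, Rasgrf1, Lpp, Tiam1, Rgs6, Zeb1 and Tmc7. Astn2, which traffics membrane proteins, was at 300.1 to 531 CPM against 1038 to 1555 CPM in Vip and 1633 to 1884 CPM in Sst nuclei. Sidt1, Hs3st4, a heparan sulfate sulfotransferase, Tiam1, an activator of Rac, and Tmc7 were at -1.56, -1.50, -1.66 and -1.97 against Vip and -0.88, -1.31, -0.95 and -0.69 against Sst nuclei. Ptprd, a synaptic adhesion phosphatase, was at -2.53 ± 0.30 (SE, adjusted p = 1.6e-08) against Vip and -0.71 ± 0.28 (SE, adjusted p = 0.0764) against Sst nuclei. Without Lamp5 nuclei the Ptprd difference from Sst nuclei passed at the same size (adjusted p = 1.7e-06), as it did in 7 of 15 alternatives in all. Against Vip nuclei Grin3a and Rgs6 were at -0.57 and -0.59 and missed the threshold (adjusted p = 0.0556 and 0.0714). They passed in 9 of 15 alternatives and 6 of 15 alternatives, and without Lamp5 nuclei at adjusted p = 0.0123 and 0.0133. Rasgrf1 and Zeb1, at -0.37 and -0.44 against Sst nuclei, missed the threshold in 3 and 2 of the 4 fits that leave out a library, with adjusted p of 0.0512 to 0.28, with DESeq2 (adjusted p = 0.0537 and 0.352), in the Control libraries alone (0.185 and 0.197) and with 2 Cck UMIs required as well (0.193 and 0.445). Rasgrf1 also missed it with no filter on low counts (adjusted p = 0.137). Lpp missed it against Vip nuclei without Control replicate 2 (adjusted p = 0.0894) and in the Control libraries alone (0.168), and Hs3st4 against Sst nuclei in the Control libraries alone (0.112).

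**Figure D3:**
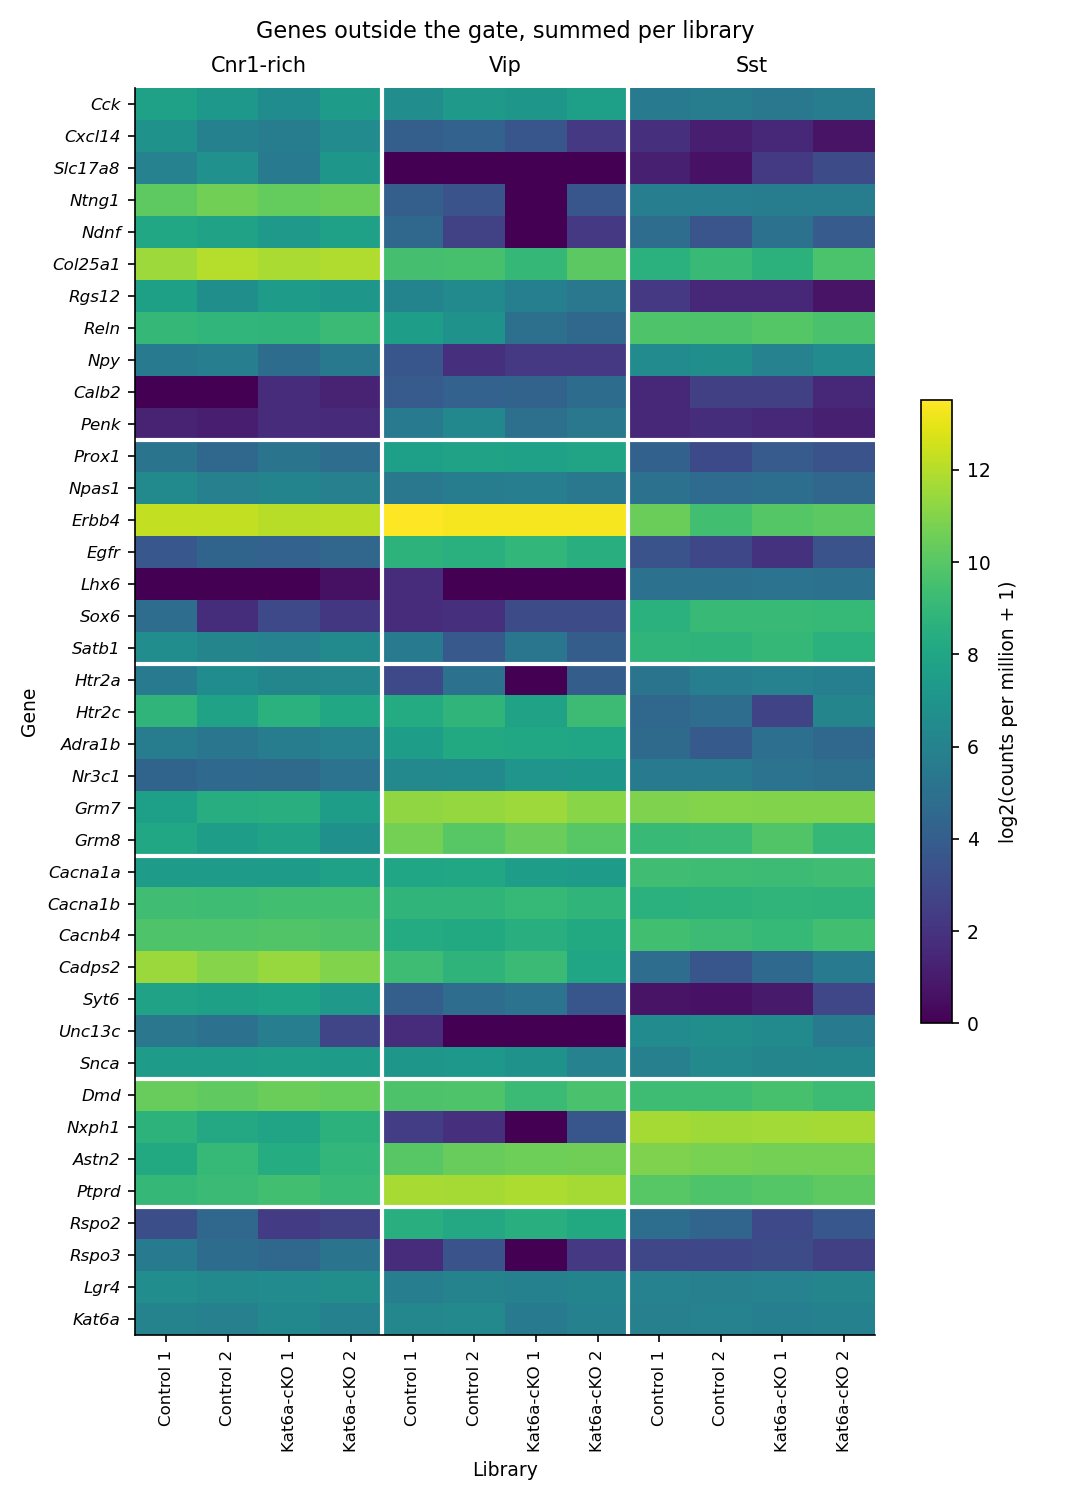
Levels of genes outside the gate, as log2(CPM + 1), in Cnr1-rich, Vip and Sst nuclei summed in each of the 4 libraries. Rows are grouped by role, and Slc17a8, Cxcl14 and Ntng1 are high in all 4 Cnr1-rich columns while Lhx6 and Sox6 are high in the Sst columns.

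Cxcl14 was found in some of the nuclei and not in others, and the nuclei were split on it to see which genes go with it. Nuclei with at least 3 Cxcl14 UMIs (19 and 15 in Control, 11 and 25 in Kat6a-cKO) were compared with those with 0 (22, 47, 50 and 50), summed per library, by edgeR's quasi-likelihood test with library as a block. The nuclei with Cxcl14 were deeper, with medians of 20507 to 26585 UMIs against 17035 to 19139.5 UMIs, and the part of depth was not tested. Of 6140 genes tested, 639 (10.4%) differed, 338 higher (5.5%) and 301 lower (4.9%) with Cxcl14. Genes that define the clusters enter this list by the same nuclei, so the split describes them a second way.

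Among genes higher with Cxcl14 were Cpne5, a copine, at 111 against 18.1 CPM (2.65 ± 0.25 SE, adjusted p = 5.7e-07), Stxbp6, a SNARE-binding protein, at 229 against 48.9 CPM (2.24 ± 0.22 SE, adjusted p = 7.6e-07), and Prkca at 1937 against 518 CPM (2.0 ± 0.12 SE, adjusted p = 2.7e-09). The other 9 of the 12 named were 4930467D21Rik (2.80), Csrp2 (2.75), the prostaglandin receptor Ptger3 (2.61), Pcsk1 (2.41), the synaptotagmins Syt9 (2.34) and Syt6 (2.09), Serpina12 (2.20), the laminin gene Lama3 (2.08) and Zim1 (2.04). Rgs12, the nociceptin precursor Pnoc and Npy were also higher, by 1.81, 1.66 and 1.35. Stxbp6, Prkca, Cpne5 and Syt9 lead cluster 2.

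Without Cxcl14, higher levels were found of Rgs6, a regulator of G-protein signalling, at 23.6 against 419 CPM with and without Cxcl14 (-4.09 ± 0.24 SE, adjusted p = 2.7e-09), of Dpy19l1 at 13.8 against 172 CPM (-3.64 ± 0.24 SE, adjusted p = 1.4e-08) and of the collagen gene Col14a1 at 4.01 against 55.0 CPM (-3.49 ± 0.41 SE, adjusted p = 8.9e-06). The other 9 named were Edaradd, the protease gene Adamts18 (-4.07), the cadherin Dchs2 (-3.92), Mob3b (-3.75), Sox1ot (-3.48), the kinase Stk32b (-3.44), the motor Myo5b (-3.40), the Rac regulator Chn2 (-3.40) and Fam124a (-3.31). Edaradd had 2 counts with and 158 without Cxcl14, a level higher without it by 44.2-fold, with a 95% counting interval of 12 to 368. Ntng1 (-2.28), the opioid receptor Oprm1 (-2.25), Egfr (-3.05) and Slc17a8 (-1.06) were lower with Cxcl14 too. Cck did not pass, at 176 against 164 CPM (0.08 ± 0.26 SE, adjusted p = 0.918), and stood at -0.39 without Control replicate 1. Reln, Ndnf and Calb1 were higher with Cxcl14, by 0.97, 1.48 and 1.34. Reln and Ndnf did not pass without Control replicate 2 (adjusted p = 0.0884 and 0.17), Ndnf also not without Kat6a-cKO replicate 2 (adjusted p = 0.0845), and Calb1 not without Control replicate 2 or Kat6a-cKO replicate 1 (adjusted p = 0.114 and 0.197). DESeq2 called none of these 3 (adjusted p = 0.375, 0.576 and 0.188), and Calb1 did not pass with a Cnr1 minimum of 20 UMIs (adjusted p = 0.0686).

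**Figure D4:**
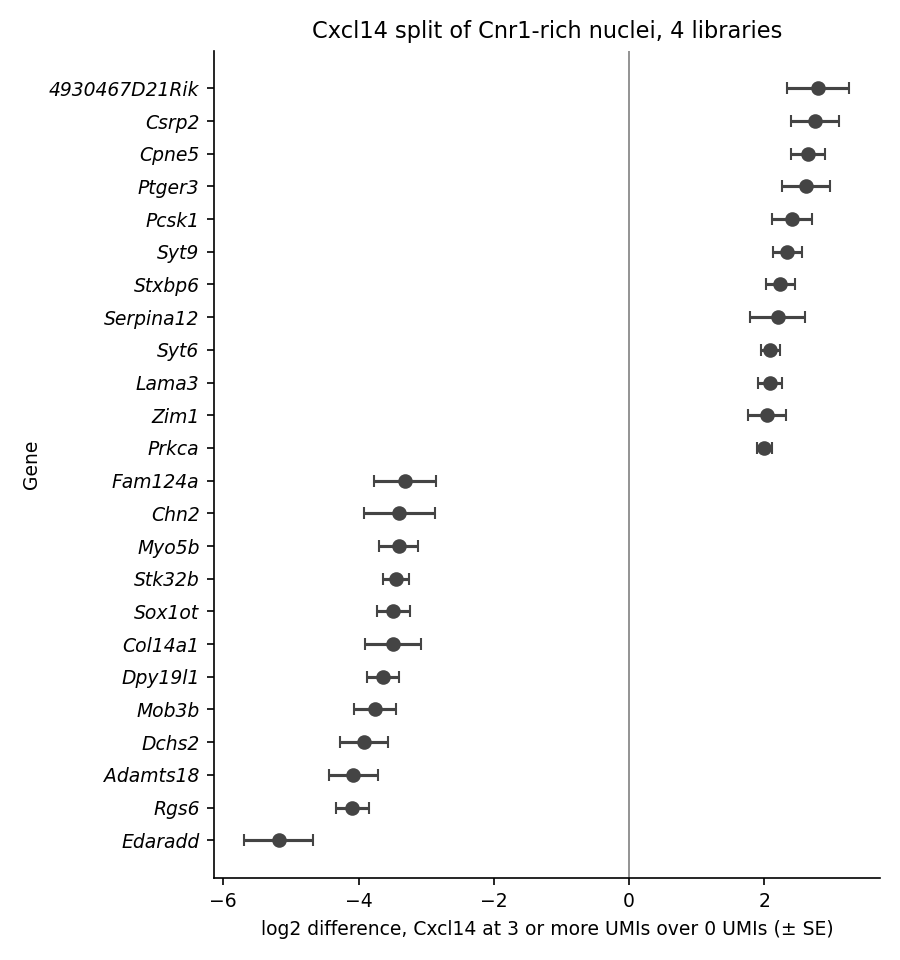
Log2 difference (± SE) of the 24 named genes between Cnr1-rich nuclei with at least 3 Cxcl14 UMIs and those with 0, over 4 libraries. Points right of the line at 0 are higher with Cxcl14, up to 2.80 for 4930467D21Rik, and Rgs6 lies left of it at -4.09.

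The last comparison set Kat6a-cKO against Control within the Cnr1-rich nuclei. Kat6a, a histone acetyltransferase gene, was at 66.2 and 58.5 CPM (Control) against 77.1 and 59.4 CPM (Kat6a-cKO), and did not differ by the test (log2 difference 0.15 ± 0.19 SE, adjusted p = 0.994). Without Kat6a-cKO replicate 1 the difference was -0.07. The files hold a cre entry, which had 0 counts in Cnr1-rich nuclei of all 4 libraries and 43 and 48 counts in excitatory nuclei of the Kat6a-cKO libraries. In those libraries the excitatory sums held 18628085 and 26022834 UMIs, against 1713045 and 1936474 in Cnr1-rich nuclei. The raw cre counts are therefore not on 1 scale, and whether 0 counts in Cnr1-rich nuclei lie below the excitatory rate was not tested. The deposited counts do not say which exon a Kat6a read came from, so the gene's level does not check the deletion.

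By edgeR's quasi-likelihood test with Benjamini-Hochberg adjustment, 7 of 9794 genes (0.0715%) differed, and all 7 were lower in the Kat6a-cKO libraries. At an unadjusted p under 0.05 there were 522. Other fits called genes in both directions, with 10 higher and 26 lower with the replicate number as a block, 12 and 25 with no filter on low counts, 10 and 21 when Control replicate 2 was left out, 1 and 5 when Control replicate 1 was, and 3 and 3 when Kat6a-cKO replicate 2 was. Of these 7, 4 are encoded by the mitochondrial genome. mt-Cytb, a subunit of respiratory complex III, was at 94.5 and 85.3 CPM (Control) against 37.4 and 27.4 CPM (Kat6a-cKO) (-1.46 ± 0.20 SE, adjusted p = 0.0122). mt-Rnr2, the large ribosomal RNA, was at 388 and 478 CPM (Control) against 231 and 187 CPM (Kat6a-cKO) (-1.03 ± 0.15 SE, adjusted p = 0.0122). For both the Control libraries lay above the Kat6a-cKO libraries. mt-Nd2 and mt-Nd4, subunits of complex I, were at 74.0 and 64.6 against 33.3 and 19.1 CPM (-1.39 ± 0.24 SE, adjusted p = 0.0369) and 56.7 and 43.9 against 20.4 and 17.0 CPM (-1.40 ± 0.24 SE, adjusted p = 0.0369). The other 3 are nuclear. Hsp90ab1 and Hsp90aa1, the HSP90 chaperones, were at 167 and 183 against 73.6 and 98.6 CPM (-1.01 ± 0.15 SE, adjusted p = 0.0158) and 69.3 and 65.8 against 26.3 and 34.6 CPM (-1.13 ± 0.20 SE, adjusted p = 0.041). Fth1, the ferritin heavy chain, was at 123 and 149 against 66.5 and 75.9 CPM (-0.92 ± 0.16 SE, adjusted p = 0.0369). The groups did not overlap for any of the 7. Over all genes tested, 33.2% had groups that did not overlap, and 18.8% were lower in Kat6a-cKO in that way.

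These calls depended on single libraries, except for mt-Cytb, which passed in each of the 4 fits that leave out a library. Leaving out Kat6a-cKO replicate 2 lost mt-Rnr2 (adjusted p = 0.0744) and leaving out Kat6a-cKO replicate 1 lost Hsp90ab1 (0.14). mt-Nd2 and mt-Nd4 missed the threshold without Control replicate 1 (adjusted p = 0.0987 and 0.136) and without Kat6a-cKO replicate 2 (0.198 and 0.185). Hsp90aa1 missed it without Control replicate 1 (0.112) or Kat6a-cKO replicate 1 (0.255). Fth1 missed it without Control replicate 2, Kat6a-cKO replicate 1 or Kat6a-cKO replicate 2 (adjusted p = 0.0765, 0.196 and 0.0864). DESeq2 called mt-Cytb and mt-Rnr2 alone. With at least 2 Cck UMIs required as well, which leaves 172 nuclei, none of the 7 passed, at adjusted p of 0.126 to 0.281. Their log2 differences there were -1.07 to -1.78, with mt-Cytb at -1.61, mt-Nd4 at -1.78, Hsp90aa1 at -1.57 and mt-Nd2 at -1.27.

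Shares of counts from mitochondrial and ribosomal protein genes also differed between the groups in Cnr1-rich nuclei. The mitochondrial values below include the 4 called mitochondrial genes, so they are not separate from the calls. Mitochondrial genes made up 0.0975% and 0.105% of the counts in Cnr1-rich nuclei of Control, against 0.0626% and 0.0449%, and in Sst nuclei 0.0869% and 0.0775% against 0.0629% and 0.0454%. In Vip nuclei they made up 0.0676% and 0.0884% against 0.0835% and 0.0591%, which overlap, and in near-empty barcodes 2.75% and 3.05% against 3.1% and 3.68%. Ribosomal protein genes made up 0.136% and 0.128% against 0.0954% and 0.095% in Cnr1-rich nuclei, and were lower in other types too. Their shares were 0.130% and 0.136% against 0.0966% and 0.0936% in Sst nuclei, and 0.145% and 0.159% against 0.117% and 0.114% in Vip nuclei. In excitatory nuclei they were 0.114% and 0.126% against 0.0825% and 0.0858%, and in near-empty barcodes 2.71% and 2.37% against 2.36% and 2.05%. Mitochondrial genes in excitatory nuclei made up 0.0733% and 0.0883% against 0.0597% and 0.0521%. Mitochondrial RNA is made outside the nucleus. Oligodendrocyte markers, genes of another cell type, were lower in the same libraries. Summed over 9 markers their level was 93.7 and 93.2 CPM in Control, against 68.3 and 53.2 CPM in Kat6a-cKO. All 6 tested ones had a log2 difference below 0, with a median of -0.63, and 0 passed. Astrocyte markers went the other way, with 4 of 5 tested above 0, a median of 0.17, and 0 passed. The part of mitochondrial or oligodendrocyte RNA in the 7 calls was not tested. Of 14 tested mitochondrial genes, 10 were below 0 and 9 had groups that did not overlap, with a median log2 difference of -0.77, while the median of all genes was near 0. Over all genes 4979 of 9794 were below 0, and 18.8% were lower in Kat6a-cKO with groups that did not overlap. These nuclei belong to a larger set of inhibitory nuclei whose genotype results were known, so the calls are no independent support for it.

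**Figure D5:**
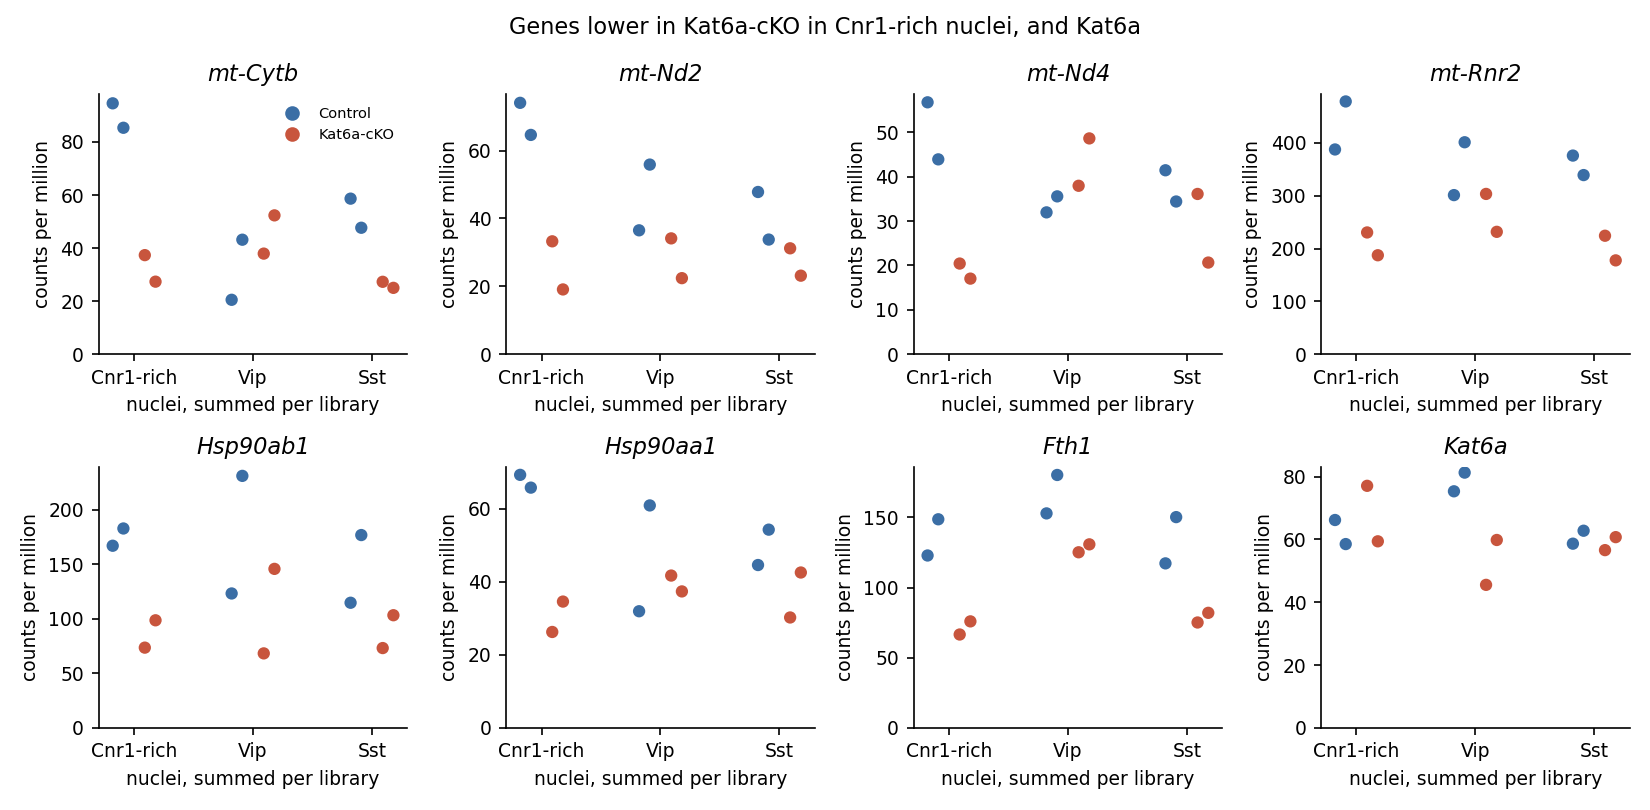
CPM of the 7 genes called lower in Kat6a-cKO and of Kat6a, 1 point per library, in Cnr1-rich, Vip and Sst nuclei. In Cnr1-rich nuclei the Control points of mt-Cytb (94.5 and 85.3) lie above the Kat6a-cKO points (37.4 and 27.4), and the Kat6a points of the groups overlap.

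Genes that mark these nuclei did not pass the genotype test. Cck was at -0.42 on the log2 scale (adjusted p = 0.943), with 212 and 147 against 95.7 and 167 CPM. Cxcl14 was at -0.29 (adjusted p = 0.994), and at 0.28 without Control replicate 1 and 0.02 with Kat6a-cKO replicate 1 left out. Slc17a8 was at 0.09 (adjusted p = 0.996), with 63.0 and 115 against 46.7 and 143 CPM, and turned to -0.90 without Kat6a-cKO replicate 2 (unadjusted p = 0.00214, adjusted p = 0.405) and to -0.23 without Control replicate 1. No gene of the endocannabinoid (18 tested), CCK system (13 tested), subtype (24 tested) or Wnt and R-spondin (9 tested) lists passed. Only 0.0715% of all genes did, so a count of 0 says nothing particular of these lists. Rspo2, named in the title of the series, was at 8.67 and 22.6 against 4.09 and 5.16 CPM, from 11 and 37 against 7 and 10 counts (-1.76 ± 0.49 SE, adjusted p = 0.407).

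Whether the genotype difference in Cnr1-rich nuclei departed from that in the other interneurons was tested by an interaction term over 8105 genes in edgeR. It called 0 (0.0%), with 211 genes at an unadjusted p under 0.05, and DESeq2 called 0. For the 7 genes the adjusted p of the interaction was 1.0 in edgeR. In Sst nuclei mt-Cytb was at 58.6 and 47.7 against 27.3 and 25.0 CPM, and Hsp90ab1 at 115 and 177 against 73.2 and 103 CPM. In Vip nuclei they were at 20.5 and 43.2 against 37.9 and 52.3 CPM and 123 and 231 against 68.3 and 146 CPM. A p above the threshold does not show that the types respond alike, and the Lamp5 sums enter this fit too.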

How the data were processed

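Nuclear RNA of 4 hippocampus libraries was analysed from the deposited matrices, which the authors filled with raw UMI counts per gene and barcode, per the files' values. The submitters' processing notes name Seurat 4.0.1 and mm10. The aligner, its version, the annotation and the use of strand are not given in the sources used here. Of 55422 gene IDs, 54673 matched GENCODE M21 (GRCm38) with their version, which gave the positions, and Kat6a, Syt6 and Col25a1 did not.

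The chosen nuclei, the gene lists and the tests were set with earlier results of these data known. Library totals were 186897245, 183440076, 177249737 and 171323466 UMIs. Counts were summed per library and type. Vip, Lamp5 and Sst nuclei had at least 5000 UMIs, at least 3 UMIs of Gad1 and Gad2, no more than 1 of Slc17a7, at least 5 of their own gene and no more than 1 of the other 2. That Lamp5 gate left 11 nuclei, and a gate at 2 UMIs, chosen after seeing the data, is an alternative. Near-empty barcodes held 10 to 100 UMIs.

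Sums were tested with edgeR 4.0.16 (R 4.3.3), by TMM scaling, filterByExpr and quasi-likelihood, at an adjusted p under 0.05. The type fits used all 16 sums, with library as a block. DESeq2 1.42.0 was an alternative. Gate genes were left out of the type fits. CPM values are plain counts per 1000000 counts of a sum, and log2 differences come from the fits. Clusters came from Leiden (leidenalg 0.10.2) at a resolution of 0.6 on 1500 variable genes, with scanpy 1.11.5 in Python 3.11.15. Doublets were called with Scrublet at a rate of 0.06 and kept in the main results. The scripts were tested on simulated counts.

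Genes were named by a rule. Every listed gene could be named, and some are not reported here. For genotype, all genes past the threshold were named. For the type mean and the Cxcl14 split, the 12 of largest log2 difference in each direction were named, among those with a mean of at least 20 CPM on the higher side that lay on 1 side in every library. Leading genes of clusters are a description. Alternatives changed the tool, scaling, low-count filter, gates, doublets, replicate block and libraries.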

Additional observations from a re-analysis of the deposited data

How the results depend on the processing

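For genotype, the 7 calls became 2 with DESeq2, 37 with no filter on low counts, 36 with the replicate block, 4 with a Cnr1 minimum of 20 UMIs, 3 without Scrublet doublets, 0 with also 2 Cck UMIs (477 genes at an unadjusted p under 0.05), and 6 to 31 without 1 library. The 31 came without Control replicate 2. Of the 36, 10 were higher and 26 lower, of the 37, 12 and 25, and of the 31, 10 and 21. All 7 genes stayed below 0 in every alternative that was run. The labels do not pair the libraries by number. Replicate 1 minus replicate 2 correlated at 0.186 between the groups over 3290 genes.

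The comparison with Vip nuclei called 506 genes in the Control libraries only. The comparison with the mean of the 3 types called 462 in the Control libraries only, 1385 without Lamp5 nuclei and 1408 with Lamp5 nuclei from 2 UMIs. Its share of higher calls was 73.2%, against 56.0% and 55.2% in the last 2 and 61.6% with DESeq2. The Cxcl14 split called 344 genes with DESeq2. The interaction called 1 with no filter on low counts and 0 to 2 without 1 library.

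Signs turned for these genes in the fits that leave out 1 library. For genotype, Cxcl14 ran from -0.74 to 0.28 (above 0 without Control replicate 1, and at 0.02 without Kat6a-cKO replicate 1), Kat6a from -0.071 to 0.36 (below 0 without Kat6a-cKO replicate 1) and Slc17a8 from -0.90 to 0.66 (below 0 without Kat6a-cKO replicate 2, and at -0.23 without Control replicate 1). Against Vip nuclei Cck ran from -0.27 to 0.25, and in the Cxcl14 split from -0.39 to 0.53, both below 0 when Control replicate 1 was left out. With a Cnr1 minimum of 20 UMIs Cck stood at -0.19 in that split. The cause was not tested. Rspo2 passed the genotype test with no filter on low counts (-1.75, adjusted p = 0.0277 in edgeR).

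The difference in the share of nuclei stayed above 0 in every alternative that was run, from 0.166 to 0.481 percentage points without 1 library. The Slc17a8 split was not run, since 2 libraries had 6 and 9 nuclei on 1 side, and the Cxcl14 split was not run with Cnr1 counted per 10000 UMIs or with also 2 Cck UMIs, for fewer than 10 nuclei a side. With 2 libraries a group the smallest exact p for a single value is 0.33.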

Other observations

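At the resolution used, cluster 5 had the share of Cnr1-rich nuclei that was higher in both Kat6a-cKO libraries by the widest margin. This share was 5.36% and 8.86% in Control, 12.2% and 17.2% in Kat6a-cKO. At the lower resolution all 38 of its nuclei fell in 1 cluster with the 54 of cluster 3. Cluster 3 took 10.7% and 25.3% in Control, 14.4% and 15.2% in Kat6a-cKO, which overlap. The difference seen for cluster 5 thus depends on the resolution. Of its leading genes Megf11, Pbx3 and Dpy19l1, chosen after their values were seen, stood at 1.16 ± 0.23 (SE, adjusted p = 0.108), 0.74 ± 0.16 (SE, adjusted p = 0.149) and 0.69 ± 0.16 (SE, adjusted p = 0.225) on the log2 scale in the genotype comparison by edgeR's quasi-likelihood test, and none passed. These genes go with the nuclei of cluster 5, so their values are not separate from its share. Its other leading genes are not given here.

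Of 4 genes called in an earlier pool of inhibitory nuclei that holds these, all 4 were below 0 in Cnr1-rich nuclei. Over all genes 4979 of 9794 were below 0 and 0.0715% passed. By edgeR mt-Cytb and Fth1 passed, as given above, and Actb (-0.61, adjusted p = 0.272) and Rpl34 (-1.29, adjusted p = 0.287) did not. The nuclei are shared, so this is no independent support.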
